A study of Homo sapiens with 8 samples.

Results

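Genes of the mitochondrial protein import machinery were followed in the breast cancer line MDA-MB-231, an established human triple-negative line, after 2 days of culture on either a soft or a stiff substrate. Its members were the genes whose platform symbol begins with TIMM or TOMM and a number, plus GRPEL1, PAM16, SAMM50, MTX1, MTX2, PMPCA, PMPCB, CHCHD4 and GFER. The rule found 31 genes among the 19775 genes named by a single symbol. Where a gene had several probe sets, the brightest by its mean level over the 8 arrays stood for it, so brightness is a choice and not a result. The genes were grouped as a pathway with their soft and stiff values already known, and all values below describe a set chosen in that way. Total RNA of 4 biological replicates on soft and 4 on stiff, lettered A to D in each group, was measured on Affymetrix arrays, each replicate on its own array. Both groups grew in the same serum-containing DMEM/F12 medium, and the labels name no other difference between them than the substrate. How soft or how stiff the substrates were is not stated in the labels, and 1 line is a limited model of breast cancer.

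Nearly all mitochondrial proteins are made in the cytosol and must be carried across the outer or inner membrane. The TOM complex is the common gate of the outer membrane. From there, barrel proteins go to the SAM complex, hydrophobic carriers are passed by small TIM chaperones to the TIM22 complex, proteins with a presequence go to the TIM23 complex and its motor, and cysteine-rich proteins are trapped in the intermembrane space by the CHCHD4 and GFER disulfide relay. Presequences are then cut off by the processing peptidase in the matrix.

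Cells on soft had 11 of the 31 import genes lower than cells on stiff, and none higher, and 20 did not pass the threshold. The 11 were the channel and accessory subunits TOMM40 and TOMM5, the small chaperones TIMM8A, TIMM9, TIMM10 and TIMM13, the carrier translocase subunit TIMM29, the presequence translocase and motor subunits TIMM21, TIMM50 and GRPEL1, and the relay oxidoreductase CHCHD4. The differences were small, between -0.532 and -0.255 on the log2 scale, soft minus stiff, or 0.691 to 0.838 of the stiff level. A gene passed at an adjusted p under 0.05 in limma, adjusted over all 54613 probe sets. By that call 35.5% of the import genes were lower on soft and none higher, against 5.93% lower and 4.39% higher of all 19775 genes. Import genes are well expressed, and among the 10884 genes with either group mean above a background level of 6.47, taken from genes silent in breast cells, 10.0% were lower and 7.3% higher. No import gene was higher at an unadjusted p under 0.05 either, a threshold at which the share of all genes was not counted. The probe set of TIMM23, the channel of the presequence translocase, lay below background, at 3.14 to 3.50 on soft and 3.29 to 3.65 on stiff, so its direction cannot be read. Other probe sets for TIMM23 carry the symbol of TIMM23B as well and were not used, so this level is that of 1 probe set and not a measure of the gene. The other 30 lay above it.

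The median difference of the 31 genes was -0.17, against 0.0075 over all genes and -0.025 over the genes above background. Of the 31 differences 27 were negative and 4 positive, from -0.532 for TIMM8A to 0.0575 for TIMM23B. Negative differences made up 55.6% of the genes above background. Every soft array lay below every stiff array for 17 import genes, which took in the 11 that fell and 6 others. No import gene had every soft array above every stiff array. That full separation downward was found for 11.2% of all genes and 18.8% of those above background. Averaged over the 31 genes, the soft arrays A to D lay at -0.218, -0.230, -0.124 and -0.158 from the stiff mean on the log2 scale, and the stiff arrays at -0.025 to 0.0385. Soft A and B were the lowest, soft C the nearest to stiff, and no soft array reached a stiff one. RMA equalises the arrays, so these values are relative to all other transcripts on an array, and fewer cells with a transcript cannot be told apart from less of it per cell.

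**Figure D1:**
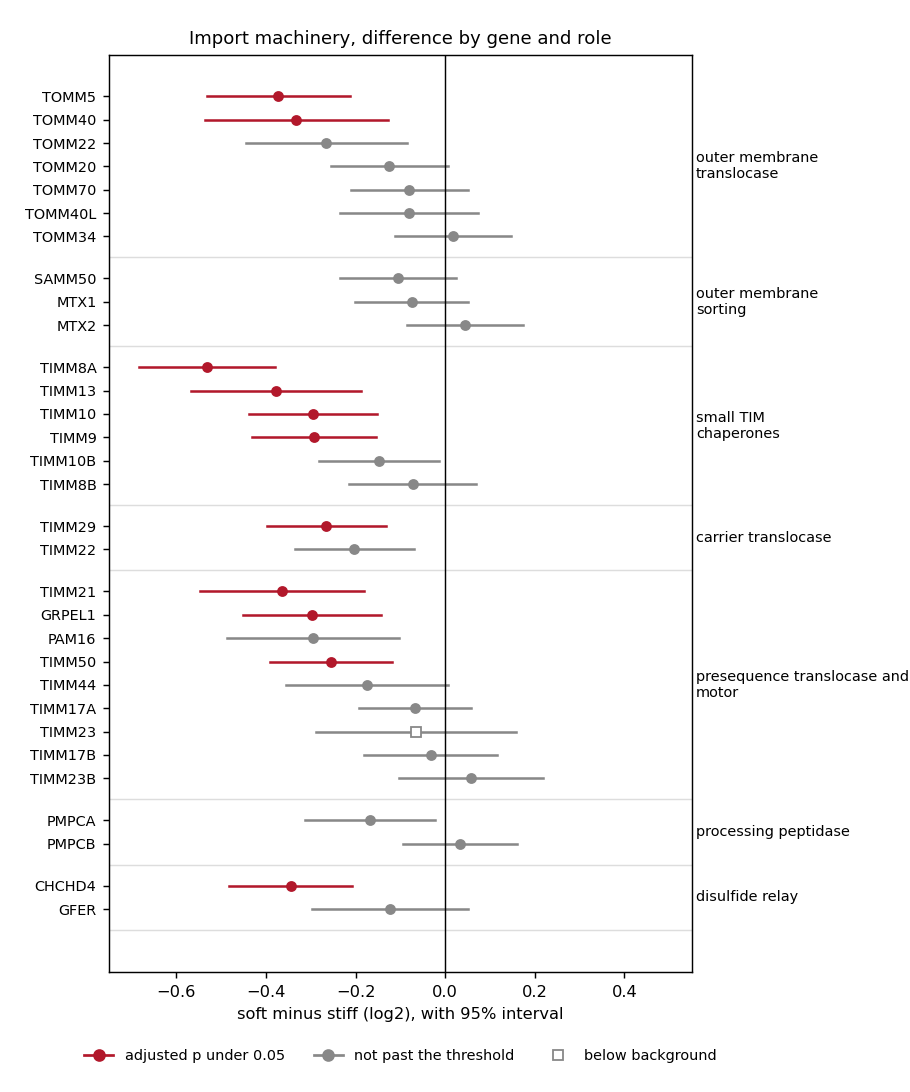
Soft minus stiff difference on the log2 scale (horizontal axis) of the 31 import genes, grouped by role; points are differences, bars 95% intervals from limma, red marks adjusted p under 0.05 and the open square the gene below background. The 11 red genes lie between -0.532 and -0.255, and the 4 positive differences do not exceed 0.0575.

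The number of calls depended on single arrays although the direction did not. Without stiff B only CHCHD4, TIMM8A and TOMM5 still passed, 3 genes against 11, and the 8 others had adjusted p between 0.0526 and 0.134. Without soft A 7 passed, with GRPEL1, TIMM13, TIMM50 and TOMM40 at adjusted p between 0.0510 and 0.120. Without stiff A the count was also 7 and the same 4 genes were lost, at 0.0569 to 0.1. Without soft B 6 passed, and TIMM29 joined those 4, at 0.0521 to 0.119. Without soft D GRPEL1 and TIMM13 were lost (0.0560 and 0.0520), without stiff C TIMM21, TIMM50 and TOMM40 (0.0537 to 0.0874), and without stiff D TIMM29 and TIMM50 (0.0571 and 0.0573). Leaving out soft C lost none of the 11. The share of all genes called lower moved too: it was 2.77% without stiff B, 6.06% without soft C, and 3.55% to 3.84% without any 1 of the other arrays. All 11 differences stayed negative in each of these fits, between -0.568 and -0.218. CHCHD4 and TIMM8A, the only import genes past adjusted p under 0.01, a threshold that 1.44% of all genes passed downward, were called in each of the 21 alternative settings run.

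The stiff arrays fell into A and B against C and D for several of these genes. Against stiff A and B alone 5 import genes were called lower and 2.66% of all genes, and against stiff C and D alone 2 import genes, TIMM8A and CHCHD4, and 1.96% of all genes. The 11 differences remained negative in both, and 10 of them were larger against stiff A and B. The median over the 31 genes was -0.155 against stiff A and B and -0.16 against stiff C and D.

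Regulatory sequence is shown for 4 of the genes that fell. TIMM8A and CHCHD4 were taken because they passed in every setting. TIMM10 and TIMM29 were taken because their windows hold the most motif matches among the genes that fell and have a window. Each window runs 5′ to 3′ on the gene's strand from 250 bases before to 50 after the gene's start, from RefSeq on GRCh38.p14. Capitals mark matches to any of 4 motifs, on either strand: GCGCA, any base, then GCGC (bound by the factor NRF1), CCGGAAG (ETS factors such as GABPA), CACGTG (the E-box read by MYC and others) and AAGATGGC (YY1).
TIMM8A, chrX:101348693-101348992, minus strand: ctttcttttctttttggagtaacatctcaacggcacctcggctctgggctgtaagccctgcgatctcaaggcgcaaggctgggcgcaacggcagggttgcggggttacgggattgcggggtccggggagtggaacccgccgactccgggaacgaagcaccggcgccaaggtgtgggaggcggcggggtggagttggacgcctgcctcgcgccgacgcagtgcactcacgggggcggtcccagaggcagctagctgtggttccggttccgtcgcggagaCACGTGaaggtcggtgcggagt
CHCHD4, chr3:14124821-14125120, minus strand: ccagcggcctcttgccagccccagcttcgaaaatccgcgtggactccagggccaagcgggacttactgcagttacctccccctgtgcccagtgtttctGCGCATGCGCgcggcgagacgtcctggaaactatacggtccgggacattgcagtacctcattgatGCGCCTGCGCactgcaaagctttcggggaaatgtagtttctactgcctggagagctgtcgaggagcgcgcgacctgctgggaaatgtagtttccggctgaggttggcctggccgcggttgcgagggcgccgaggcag
TIMM10, chr11:57530705-57531004, minus strand: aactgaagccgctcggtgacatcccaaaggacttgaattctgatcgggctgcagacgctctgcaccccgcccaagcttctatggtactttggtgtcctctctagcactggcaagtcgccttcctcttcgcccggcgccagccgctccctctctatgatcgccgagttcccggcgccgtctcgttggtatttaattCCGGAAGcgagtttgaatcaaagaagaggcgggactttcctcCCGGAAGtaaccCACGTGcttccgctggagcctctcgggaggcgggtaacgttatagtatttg
TIMM29, chr19:10928561-10928860, plus strand: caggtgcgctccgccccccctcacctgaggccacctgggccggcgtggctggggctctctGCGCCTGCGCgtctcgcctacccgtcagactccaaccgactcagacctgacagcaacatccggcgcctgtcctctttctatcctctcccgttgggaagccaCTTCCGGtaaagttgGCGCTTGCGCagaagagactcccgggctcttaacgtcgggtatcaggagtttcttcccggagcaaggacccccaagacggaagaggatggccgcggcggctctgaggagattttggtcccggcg
CHCHD4 and TIMM29 each hold 2 NRF1 matches, starting at positions -152 and -87 from the start of CHCHD4 and at -190 and -74 from that of TIMM29. TIMM29 also holds an ETS match at -89. TIMM10 holds 2 ETS matches, at -55 and -13, and an E-box at -1, and TIMM8A holds 1 E-box at 29. No match of 2 different motifs overlapped in any member's window.

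A window was given for 28 of the 31 members, 9 of them among the 11 that fell; TOMM5 and GRPEL1 have none here. The NRF1 motif was in 6 of the 28, the ETS motif in 12, the E-box in 3 and the YY1 motif in 3. These are 21.4%, 42.9%, 10.7% and 10.7% of the import windows, against 6.28%, 10.7%, 7.43% and 3.03% of all 27305 promoter windows. Among the 9 windows of genes that fell the counts were 3, 3, 2 and 1. The windows of TIMM9 and TIMM21, which also fell, held no match. Among windows of genes not past the threshold, TOMM20 held an NRF1, an ETS and an E-box match and TOMM34 an NRF1 and an ETS match. These are matches of letters only, in windows that differ in base composition, and no binding was measured.

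The outer membrane translocase, with the mainly cytosolic TOMM34 counted in, had 2 of 7 measured genes lower and 5 not past the threshold. Their median was -0.125. TOMM5, a small subunit that stabilises the channel, had log2 levels of 11.77, 11.95, 12.04 and 11.99 on soft arrays A to D, against 12.38, 12.35, 12.27 and 12.24 on stiff arrays A to D. Soft A was the lowest and the groups did not overlap. Its difference was -0.37 (SE 0.0726, limma adjusted p = 0.0102), which is 0.772 of the stiff level, and its other probe set also fell, by 0.26 (adjusted p = 0.0262). TOMM40, the channel through which nearly all precursors pass, had 8.99, 8.98, 9.24 and 9.31 on soft, against 9.49, 9.61, 9.43 and 9.32 on stiff. Soft D and stiff D nearly touched. TOMM40 differed by -0.33 (SE 0.0932, adjusted p = 0.0478), the weakest of the 11 calls, held in 9 of the 20 alternative settings that measured it.

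The receptors of the outer membrane did not pass. TOMM22, the central receptor, had 10.33, 10.56, 10.70 and 10.59 on soft, against 10.84, 10.86, 10.83 and 10.71 on stiff. The arrays did not overlap, with soft A farthest below, and the difference was -0.265 (SE 0.0818, adjusted p = 0.0693). It passed in 5 of 20 alternative settings (adjusted p 0.0179 to 0.0390). Of its other probe sets, the dimmest, near background, fell by 0.37 (adjusted p = 0.00901), while a brighter one differed by -0.135 (adjusted p = 0.231). TOMM20, which recognises presequences, differed by -0.125 (adjusted p = 0.240), and TOMM70, the receptor for carriers, by -0.08 (adjusted p = 0.479), both with overlapping arrays. A dimmer probe set of TOMM70 fell by 0.32 (adjusted p = 0.0165), so the gene's probe sets do not give 1 answer. TOMM40L, a paralog of the channel, and TOMM34, a mainly cytosolic cochaperone of precursors, differed by -0.08 (adjusted p = 0.56) and 0.0175 (adjusted p = 0.901). TOMM40L had 8.18, 8.2, 8.38 and 8.21 on soft, against 8.28, 8.44, 8.25 and 8.32 on stiff, with soft C inside the stiff range. TOMM6 and TOMM7, other small subunits, appear at probe sets that carry another gene's symbol as well and are not analysed here.

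None of the 3 outer membrane sorting genes passed. SAMM50, which folds barrel proteins into the membrane, had 10.39, 10.32, 10.44 and 10.43 on soft, against 10.51, 10.56, 10.46 and 10.47 on stiff. The groups did not overlap, yet the difference was only -0.105 (adjusted p = 0.330). A second probe set of SAMM50 at a similar level differed by -0.215 (adjusted p = 0.0549). MTX1, a metaxin that works with SAMM50, had 9.94, 9.89, 9.91 and 10 on soft, against 10.05, 9.97, 10.01 and 10.01 on stiff, and differed by -0.075 (adjusted p = 0.494). Its partner MTX2 had 10.93, 10.96, 11.02 and 10.95 on soft, against 10.92, 10.99, 10.85 and 10.92 on stiff, and differed by 0.045 (adjusted p = 0.717). Both metaxins overlapped between the groups.

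**Figure D2:**
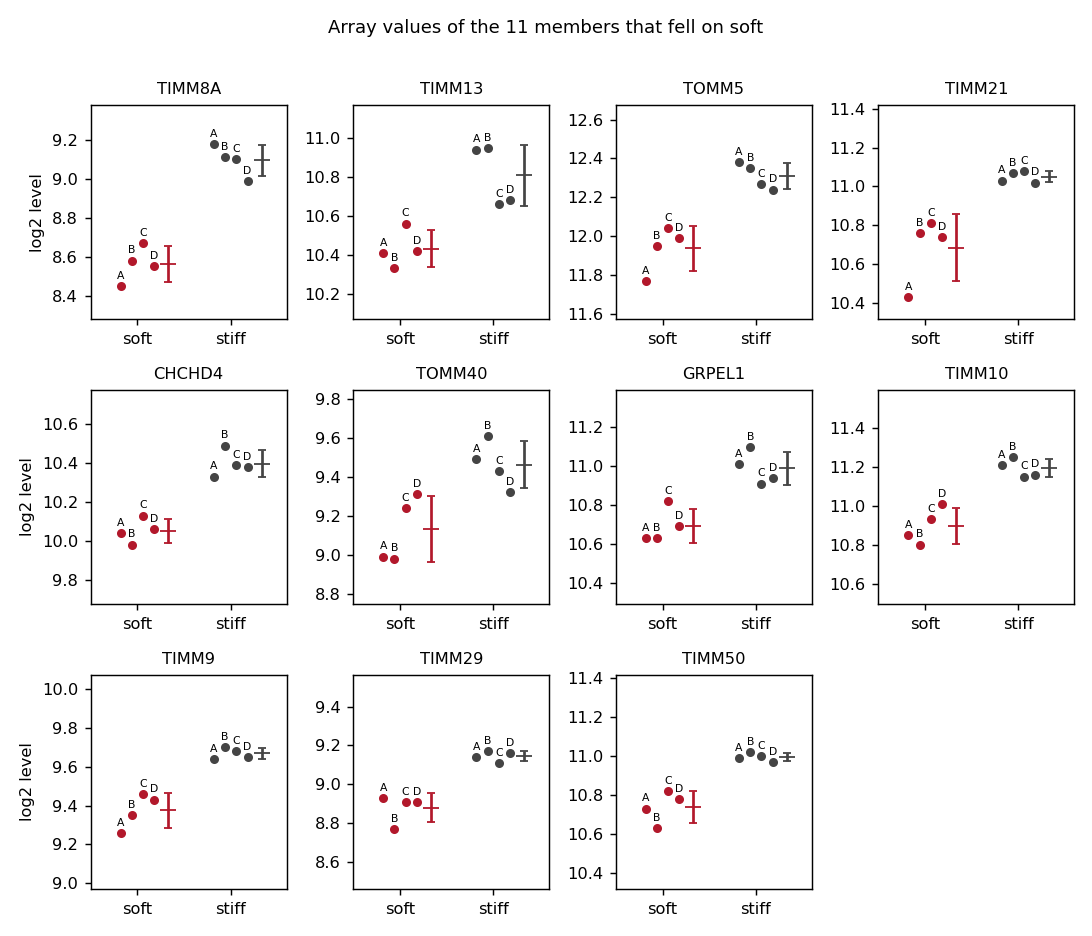
Log2 level (vertical axis, the same span in each panel) on the 4 soft and the 4 stiff arrays for the 11 import genes that fell; letters name the replicates, and bars show the mean and SD of each group. No soft point reaches a stiff point, and the gap is narrowest for TOMM40, between 9.31 and 9.32.

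The small TIM chaperones, which shield hydrophobic proteins in the intermembrane space as hetero-hexamers, had 4 of 6 members lower and 2 not past the threshold, with a median of -0.29. TIMM8A had 8.45, 8.58, 8.67 and 8.55 on soft, against 9.18, 9.11, 9.10 and 8.99 on stiff. Every soft array lay well below the lowest stiff array, stiff D. It differed by -0.53 (SE 0.069, limma adjusted p = 0.00135), which is 0.691 of the stiff level. In humans loss of TIMM8A causes deafness-dystonia syndrome. TIMM13, its hexamer partner, had 10.41, 10.33, 10.56 and 10.42 on soft, against 10.94, 10.95, 10.66 and 10.68 on stiff. The stiff arrays split, with A and B well above C and D. TIMM13 differed by -0.38 (SE 0.0864, adjusted p = 0.0208), by -0.515 against stiff A and B and by -0.24 against stiff C and D.

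TIMM9 and TIMM10 form the main chaperone hexamer for carriers, and both fell to a similar degree. TIMM9 had 9.26, 9.35, 9.46 and 9.43 on soft, against 9.64, 9.70, 9.68 and 9.65 on stiff, a difference of -0.29 (SE 0.0633, adjusted p = 0.0161). TIMM10 had 10.85, 10.80, 10.93 and 11.01 on soft, against 11.21, 11.25, 11.15 and 11.16 on stiff, a difference of -0.295 (SE 0.0653, adjusted p = 0.0177). The stiff arrays of both genes lay close together and the soft ones were spread more widely below them. The second TIMM10 probe set also fell, by 0.335 (adjusted p = 0.0134). TIMM10B, which docks the chaperones on the carrier translocase, had 8.05 to 8.17 on soft and 8.19 to 8.33 on stiff, and differed by -0.15 (adjusted p = 0.172). Its dimmer probe set fell by 0.29 (adjusted p = 0.0244). TIMM8B, the paralog of TIMM8A, had 11.45, 11.39, 11.47 and 11.5 on soft, against 11.61, 11.59, 11.44 and 11.46 on stiff. Stiff C and D lay within the soft range, and TIMM8B differed by -0.07 (adjusted p = 0.566). Its dimmer probe set differed by -0.1675 (adjusted p = 0.148). There stiff A to D had 8.90, 9.02, 9.12 and 9.10, so C and D were the highest, against 8.84 to 8.91 on soft.

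The carrier translocase TIM22 inserts metabolite carriers into the inner membrane. TIMM29, the subunit that links it to the TOM complex, had 8.93, 8.77, 8.91 and 8.91 on soft, against 9.14, 9.17, 9.11 and 9.16 on stiff. Stiff arrays lay close together and soft B stood lowest. TIMM29 differed by -0.265 (SE 0.0605, adjusted p = 0.0205). TIMM22, the channel itself, had 9.15, 9.08, 9.15 and 9.22 on soft, against 9.29, 9.32, 9.4 and 9.4 on stiff. The groups did not overlap, and the difference was -0.2025 (SE 0.0607, adjusted p = 0.0621), not past the threshold. It passed in 4 of 20 alternative settings (adjusted p 0.00494 to 0.0263). That probe set is marked as holding probes shared with other sequences. A dimmer one fell by 0.49 (adjusted p = 0.00307), and another differed by -0.24 (adjusted p = 0.0556).

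The presequence translocase and its motor had 3 of 9 genes lower and 6 not past the threshold, with a median of -0.175. TIMM21, which couples the TIM23 complex to the TOM complex and to respiratory chain assembly, had 10.43, 10.76, 10.81 and 10.74 on soft, against 11.03, 11.07, 11.08 and 11.02 on stiff. Soft A lay well below the other soft arrays, and these in turn lay below all stiff arrays. TIMM21 differed by -0.365 (SE 0.0834, limma adjusted p = 0.0206), and its second probe set fell by 0.29 (adjusted p = 0.0326). TIMM50, the receptor that hands presequences to the channel, had 10.73, 10.63, 10.82 and 10.78 on soft, against 10.99, 11.02, 11 and 10.97 on stiff. It differed by -0.255 (SE 0.0616, adjusted p = 0.0260), the smallest of the 11 changes. GRPEL1, the nucleotide exchange factor of the motor chaperone, had 10.63, 10.63, 10.82 and 10.69 on soft, against 11.01, 11.10, 10.91 and 10.94 on stiff. Soft C came nearest to the stiff arrays. GRPEL1 differed by -0.2975 (SE 0.0697, adjusted p = 0.0232), and its second probe set by -0.205 (adjusted p = 0.0509).

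PAM16, a regulator of the motor, had 7.56, 7.31, 7.63 and 7.74 on soft, against 7.82, 7.88, 7.81 and 7.91 on stiff. The arrays did not overlap but soft B stood low, and the difference of -0.295 (SE 0.0872, adjusted p = 0.0588) was not past the threshold. It passed in 6 of 21 alternative settings (adjusted p 0.0237 to 0.0477). TIMM44, which anchors the motor to the channel, had 9.42, 9.29, 9.35 and 9.37 on soft, against 9.38, 9.41, 9.71 and 9.63 on stiff. Only stiff C and D stood apart, and the differences were -0.0375 against stiff A and B and -0.3125 against stiff C and D, opposite in pattern to TIMM13. Over all arrays TIMM44 differed by -0.175 (adjusted p = 0.233). TIMM17A, a channel subunit, had 12.49, 12.43, 12.46 and 12.51 on soft, against 12.49, 12.53, 12.56 and 12.58 on stiff, and differed by -0.0675 (adjusted p = 0.539). Its paralog TIMM17B had 8.55, 8.49, 8.67 and 8.68 on soft, against 8.55, 8.61, 8.66 and 8.7 on stiff, and differed by -0.0325 (adjusted p = 0.832). Both overlapped between the groups, as did TIMM23B, a copy of TIMM23, which differed by 0.0575 (adjusted p = 0.708). TIMM23 and TIMM23B are near-identical, so probes for them may be shared.

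Matrix processing peptidase genes did not pass. PMPCA had 9.64, 9.60, 9.65 and 9.64 on soft, against 9.80, 9.94, 9.77 and 9.69 on stiff, and differed by -0.17 (adjusted p = 0.151). Its soft arrays were tight and lay below all stiff arrays. PMPCB, the catalytic subunit, had 11.58, 11.51, 11.58 and 11.6 on soft, against 11.55, 11.57, 11.46 and 11.56 on stiff, with overlap, and differed by 0.0325 (adjusted p = 0.802).

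In the disulfide relay, CHCHD4, the oxidoreductase that folds cysteine-rich precursors as they arrive, had 10.04, 9.98, 10.13 and 10.06 on soft, against 10.33, 10.49, 10.39 and 10.38 on stiff. Both groups were tight and clear of each other. It differed by -0.345 (SE 0.0628, limma adjusted p = 0.00743), which is 0.787 of the stiff level. GFER, the sulfhydryl oxidase that recharges CHCHD4, had 7.81, 7.79, 7.88 and 7.84 on soft, against 8.05, 8.11, 7.77 and 7.88 on stiff. Stiff C lay below all soft arrays, and the difference was -0.12 (adjusted p = 0.407).

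Among the 31 genes, 19 had more than 1 probe set. The 25 probe sets not chosen held 17 above background, all with negative differences, of which 8 were called lower and none higher. Over all 54613 probe sets 4.63% were called lower and 4.64% higher. Among genes above background, each at its brightest probe set, 10.0% were lower and 7.3% higher. None of the 8 below background was called. One of SAMM50 lay just under the level, at 6.36 on soft and 6.235 on stiff. Its difference was positive, at 0.1225 (limma adjusted p = 0.482), so the uniform sign depends on where the level was set. Of 14 genes with at least 2 probe sets above background, TIMM10, TIMM21 and TOMM5 were called at all of them. GRPEL1 and TIMM50 were called at the brighter one only. TIMM10B, TIMM17A, TIMM22, TOMM22 and TOMM70 were called only at a dimmer one. With these 5, genes with any probe set called lower numbered 16. The share of all genes with any probe set called lower was not counted. Genes with several probe sets have more occasions for such a call, so 16 cannot be set against the shares above. For TIMM17A the called probe set lay near background (difference -0.2975, adjusted p = 0.0364), while the brighter ones differed by -0.035 and -0.0675. Adjusted p was computed over all probe sets in each case.

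**Figure D3:**
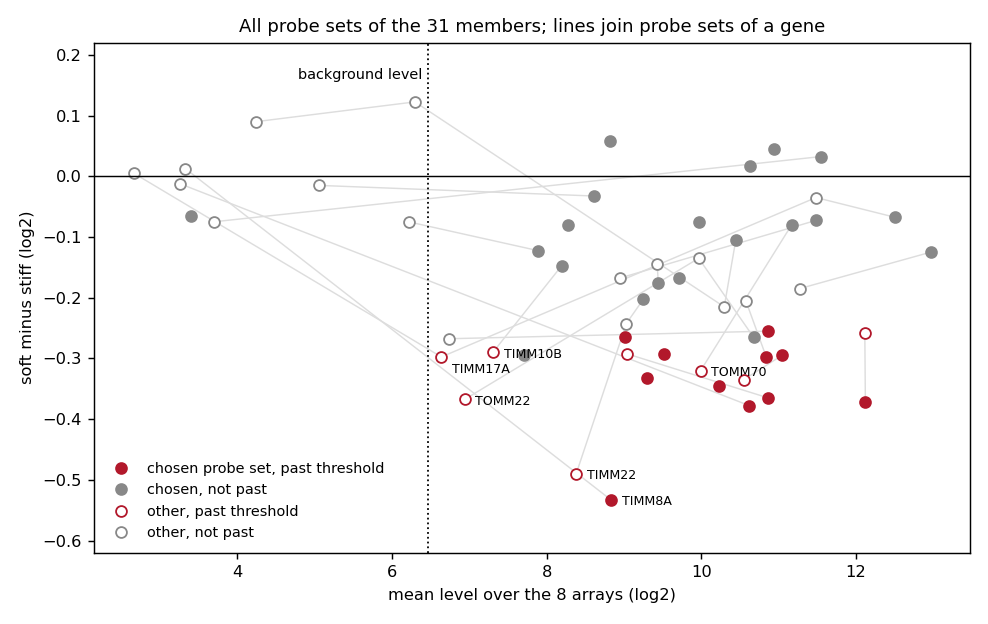
Soft minus stiff difference (vertical axis, log2) against the mean level over the 8 arrays (horizontal axis, log2) for all 56 probe sets of the 31 genes; filled points are the chosen probe sets, open points the others, red marks adjusted p under 0.05 and grey lines join probe sets of a gene. Above the dotted background level of 6.47 every open point lies below 0, and the lowest, of TIMM22, is at -0.49.

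The 5 pairs of related members were compared array by array, as the level of one minus that of the other. TIMM8A minus TIMM8B lay between -3 and -2.8 on soft and between -2.48 and -2.34 on stiff, a difference of differences of -0.46 (95% interval -0.605 to -0.315; exact permutation p = 0.0286, two-sided, the smallest that 4 against 4 arrays allow; adjusted p = 0.0714 over 5 pairs). PMPCA against PMPCB gave -0.20 (interval -0.328 to -0.0721, exact permutation p = 0.0286, adjusted p = 0.0714). For both pairs no soft array overlapped a stiff one. TOMM40 against TOMM40L gave -0.2525 (interval -0.465 to -0.040, exact permutation p = 0.0571, adjusted p = 0.0952), MTX1 against MTX2 -0.12 (interval -0.251 to 0.0114, adjusted p = 0.107), and TIMM17A against TIMM17B -0.035 (interval -0.134 to 0.0641, adjusted p = 0.457). No pair passed the adjusted threshold, and a design of this size could not have brought 1 pair alone past it. Probe sets differ in how strongly they respond, which these differences carry too.

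**Figure D4:**
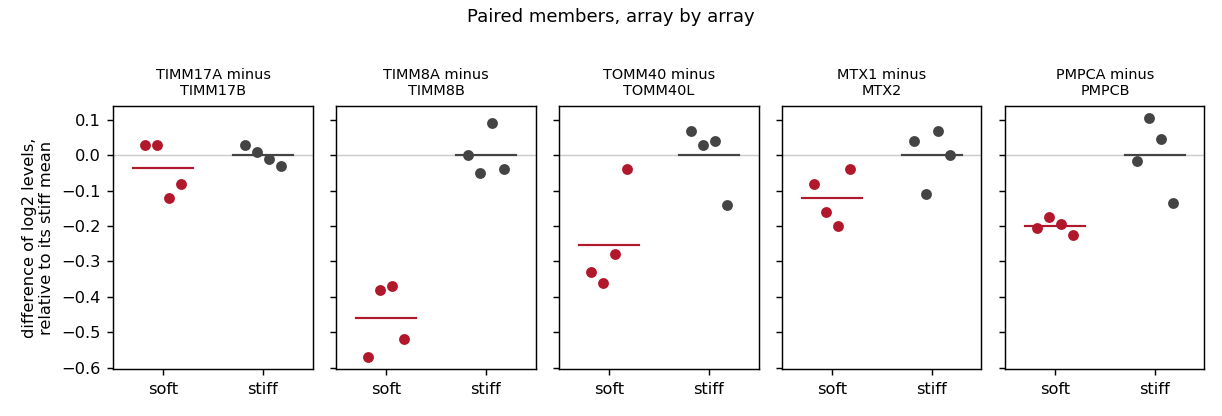
Difference of the log2 levels of 2 related import genes on each array, set relative to its mean on stiff (vertical axis); red points are the 4 soft arrays, dark grey points the 4 stiff arrays and lines the group means. TIMM8A against TIMM8B and PMPCA against PMPCB do not overlap between groups, with means of -0.46 and -0.20 on soft.

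Other genes of import and mitochondrial upkeep were read from 8 lists, chosen with earlier results of these data known. Of 14 import partners 4 were lower and 10 did not pass, with none higher (median -0.10). All 14 lay above background, where 10.0% of genes were lower and 7.3% higher. HSPA9, the motor chaperone that pulls precursors into the matrix and works with GRPEL1, had 12.18, 12.17, 12.25 and 12.18 on soft, against 12.40, 12.45, 12.58 and 12.58 on stiff, and differed by -0.31 (SE 0.0644, limma adjusted p = 0.0140). Its soft arrays were tight and clear of the stiff ones. The matrix folding chaperonins HSPE1 and HSPD1 fell, with differences of -0.365 (adjusted p = 0.0148) and -0.235 (adjusted p = 0.0249), and the intermembrane space protease ATP23 fell by 0.325 (adjusted p = 0.0193). GRPEL2, the paralog of GRPEL1, differed by -0.32 with adjusted p = 0.0582, and AGK, a TIM22 subunit, by -0.19 with adjusted p = 0.0621. The motor cochaperones DNAJC19 and DNAJC15 differed by -0.10 and 0.045, the metaxin MTX3 by -0.10, the channel partner ROMO1 by -0.03, the insertases OXA1L, MTCH1 and MTCH2 by 0.0625, 0.035 and -0.10, and TIMMDC1, a complex assembly factor, by 0.0625, with adjusted p of at least 0.326 in each.

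Calls among clients, proteases, cristae genes and delivery chaperones of the pathway are to be read beside the 5.93% lower and 4.39% higher of all genes. All of these genes but SPG7 and COX17 lay above background, where 10.0% of genes were lower and 7.3% higher. None of 14 presequence and mitochondrial proteases (median -0.08) and none of 9 cytosolic chaperones that deliver precursors (median -0.055) passed in limma. At an unadjusted p under 0.05 the counts were 0 proteases and 3 chaperones, all 3 lower, with no share of all genes counted at that threshold. Of 12 MICOS and cristae genes the prohibitin PHB1 was lower, with a difference of -0.235 (adjusted p = 0.0452). Of 18 carriers and other TIM22 cargo 1 was lower and 1 higher: the pyrimidine nucleotide carrier SLC25A33 fell by 0.44 (adjusted p = 0.00731) and the iron importer SLC25A37 rose by 0.415 (adjusted p = 0.00786). Of 15 cysteine-rich substrates of the CHCHD4 relay only TRIAP1 was lower, by 0.27 (adjusted p = 0.0134), and the median was -0.04.

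Regulators of mitochondrial biogenesis had 5 of 14 lower and none higher (median -0.165). Of all genes 5.93% were lower and 4.39% higher, and of those above background, as 13 of these were, 10.0% and 7.3%. TFAM, which packages and transcribes mitochondrial DNA, had 10.54, 10.72, 10.91 and 10.68 on soft, against 11.30, 11.30, 11.20 and 11.12 on stiff, and differed by -0.52 (SE 0.0836, limma adjusted p = 0.00412). The helicase TWNK fell by 0.355 (adjusted p = 0.0122), the transcription factor TFB2M by 0.285 (adjusted p = 0.0152) and the coactivator PPRC1 by 0.28 (adjusted p = 0.0231). PPARGC1B, a coactivator, fell by 0.63 (adjusted p = 0.00123) with both groups under background. The factors whose motifs were searched did not pass: NRF1 differed by -0.17 (adjusted p = 0.144), GABPA by -0.16 (adjusted p = 0.389), MYC by -0.06 (adjusted p = 0.812) and YY1 by -0.13 (adjusted p = 0.231). For MYC the stiff arrays split around soft, with 11.11 and 11.13 on stiff A and B and 11.64 and 11.55 on C and D. Its soft arrays lay at 11.23 to 11.38.

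None of 9 measured mitochondrial stress genes passed in limma, and 0 had an unadjusted p under 0.05, with a median difference of 0.15. For all genes the share at the unadjusted threshold was not counted. ASNS, the asparagine synthetase driven by ATF4, had 11.68, 11.66, 11.47 and 11.58 on soft, against 10.52, 10.49, 11.96 and 12.05 on stiff. Stiff A and B lay far below soft and stiff C and D above it, the split of the stiff arrays described before, and the adjusted p was 0.595. ATF4, DDIT3, TRIB3 and CHAC1 also had stiff A and B below every soft array and stiff C and D higher. CHAC1 had 6.57 and 6.41 on stiff A and B, 7.57 on both C and D, and 7.3 to 7.7 on soft. ATF5 split the other way, with 8.34 and 8.32 on stiff A and B and 8.05 and 8.04 on C and D. The absence of calls therefore does not mean that these genes were level across the arrays.

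**Figure D5:**
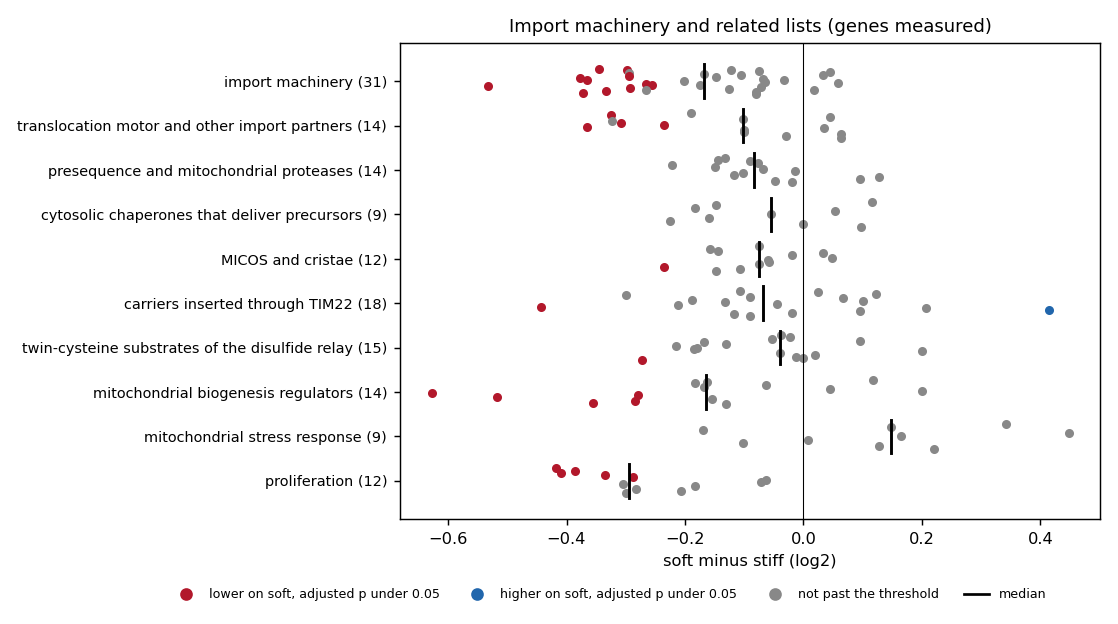
Soft minus stiff difference (horizontal axis, log2) of each measured gene of the import machinery, of 8 related lists and of a proliferation list, with the number measured in brackets; colours mark adjusted p under 0.05 and black lines the medians. The medians are -0.17 for the import genes, -0.165 for biogenesis regulators and -0.29 for proliferation genes.

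Proliferation markers differed in the same direction as the import genes. Of 12, all were above background, 5 were lower and 7 did not pass, with none higher (median -0.29). Among all genes above background 10.0% were lower and 7.3% higher. The list averaged 11.67 to 11.95 on soft arrays and 12.05 to 12.17 on stiff arrays. AURKA and CCNA2, which drive mitosis and the cell cycle, fell by 0.4175 (adjusted p = 0.00853) and 0.41 (adjusted p = 0.0171) in limma. The part of proliferation in the import genes' differences was not tested. The line's own markers VIM, CD44, AXL, CAV1 and SNAI2 were all above background. Of 6 luminal or epithelial markers KRT19, EPCAM and CLDN4 were above it, and CDH1, PGR and ESR1 were not. AXL and SNAI2 were lower on soft, with differences of -0.2275 (adjusted p = 0.0318) and -0.5075 (adjusted p = 0.00280), and the epithelial keratin KRT19 was higher, by 0.3475 (adjusted p = 0.0106). Of markers of other cells 1 of 6 fibroblast genes, 1 of 5 endothelial genes and 1 of 4 leukocyte genes lay above background. The endothelial one, PECAM1, rose by 0.49 (adjusted p = 0.00211), while CDH5, VWF, KDR and TEK lay below background. The list averages on soft and stiff were 4.92 to 5.09 and 4.98 to 5.11 for fibroblast, 5.50 to 5.59 and 5.39 to 5.59 for endothelial and 5.59 to 5.71 and 5.20 to 5.61 for leukocyte markers.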

How the data were processed

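The authors deposited log2 expression values for 54675 probe sets on 8 arrays. The tool named per the submitters' processing notes is RMA; that the scale is log2 was read from the values. RMA corrects background, equalises arrays and summarises probes, which compresses differences of dim probe sets. The software behind it is not given in the sources used here. After 62 control probe sets were left out, 54613 remained; 41091 had 1 symbol, 1801 several and 11721 none. Symbols were updated by gene identifier against RefSeq; no member's changed. The background level is the 95th percentile of 14 measured genes silent in breast cells. Of these 1, SFTPC, lay above it itself, with means of 7.62 on soft and 7.55 on stiff. The next highest, GFAP, had 5.90 and 5.84. The labels of probe sets between GFAP and the level of 6.47 therefore rest on SFTPC.

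Soft and stiff were compared with limma 3.58.1 in R 4.3.3 (lmFit, eBayes without trend, two-sided), adjusted by Benjamini-Hochberg over the 54613 probe sets. Differences are log2 soft minus log2 stiff, and SEs are moderated. On simulated data with 54613 probe sets, 57% of differences of 0.5 and 93% of differences of 1 were recovered, with 5 false calls; this says little of differences as small as those here. The members and lists were chosen with earlier results of these data known. Promoters are printed for 4 genes past the threshold. Array values are printed for genes past the threshold, for the 4 largest differences not past it and for the paired members. Those of SAMM50 and GFER were chosen after their values were seen. Of a related list, up to 2 genes per direction by size and all import partners are named, mostly by their difference. Further genes were chosen after their values were seen (TWNK, TFB2M, PPRC1, the motif factors, the stress genes named, AXL, SNAI2, KRT19). So were the array values of HSPA9, TFAM, ASNS, CHAC1, ATF5 and MYC. Labels call the replicates biological without describing separate cultures. The p-values therefore set each difference only against the moderated spread among these arrays, which may be technical. The number of arrays also limits precision. Alternatives were a replicate block, other scalings, filters on dim probe sets, other variance models, other probe sets per gene, subsets of the stiff arrays and leaving out each array.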

Additional observations from a re-analysis of the deposited data

Results flagged for a closer look

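Each group of 4 arrays of each import gene, 62 groups in all, was examined for an array far from the other 3; chance gives about 1 such array in 20 groups, and 2 were found. For TIMM29, soft B stood at 8.77, with the other soft arrays at 8.91 to 8.93. For TOMM40L, soft C stood at 8.38, with the other soft arrays at 8.18 to 8.21.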

How the results depend on the processing

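No import gene was called higher in any of the 21 alternative settings, and the 11 genes lower were 10 to 14 after other scalings, filters on dim probe sets, the trended and robust variance or array weights. The count of 14 came with more calls among all genes, 17.4% lower above background only, 14.4% above the median level only and 8.89% with the trended and robust variance, against 5.93% in the report. With a gene's probe sets averaged they were 16 (6.47% of all genes). Without probe sets ending in _x_at or _s_at they were 9 of the 26 genes still measured (4.87% of all genes tested). There TIMM13 and TIMM50 were lost at dimmer probe sets and TOMM40 was no longer measured. TIMM17A was gained, at its probe set near background. With the replicate block the count was 5 (4.13% of all genes), with stiff A and B only 5, with stiff C and D only 2 and at adjusted p under 0.01 2; the cause was not tested, though the subsets hold fewer arrays and the last threshold is stricter. Leaving out 1 array gave 3 to 12 genes lower, 0 higher, and a median difference of -0.1775 to -0.127, with -0.127 found without stiff B. Arrays with the same letter in both groups deviated from their group means with correlations of 0.1225, -0.1184, 0.0516 and -0.0447 for A to D, so the letters were not read as pairing the samples. The replicate block changed no direction among the 11 genes, and the 6 it lost had adjusted p of 0.0521 to 0.103. The related lists held 13 calls in either direction, against 5.93% lower and 4.39% higher of all genes. Nearly all of their genes lay above background, where 10.0% of genes were lower and 7.3% higher. The list counts that follow take both directions, while the shares of all genes beside them count lower genes only. They held 26 above background only, 25 above the median level only and 26 with the trended and robust variance. In these settings 17.4%, 14.4% and 8.89% of all genes tested were lower. The count was 4 at adjusted p under 0.01, 8 with stiff A and B only and 7 with stiff C and D only. There 1.44%, 2.66% and 1.96% of all genes were lower. Without 1 array it was 9 to 13, with 2.77% to 6.06% of all genes lower. Settings were run for the 11 import genes that fell, the 4 largest differences not past the threshold and the paired members. Among these, signs turned for 3, with differences near 0: TIMM17B was 0.0175 with stiff A and B only and, with 1 array left out, -0.06 to 0.00333 (the highest without soft B), TIMM8B 0.0025 with stiff C and D only, and PMPCB -0.0213 with the mean of its probe sets. Against stiff C and D alone GFER, which is not among them, turned to 0.005. Some of the 11 genes could not be checked at another probe set above background: TIMM8A and TIMM13 have a second one below it, and CHCHD4, TIMM29, TIMM9 and TOMM40 have none. Averaging with those dim probe sets gave -0.26 for TIMM8A (adjusted p = 0.0192) and -0.195 for TIMM13 (adjusted p = 0.0498).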
